A study of Capra hircus with 6 samples.

Results

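SENP6 encodes a protease that acts on SUMO, a small protein that cells attach to other proteins. The circular RNAs (circRNAs) of this gene in goat pre-ovulatory ovarian follicles were taken as every entry of the 6 annotated circRNA tables whose gene identifier was 102188944 (SENP6), with 1 circRNA defined by its chromosome, start, end and strand. This gave 14 of the 13950 distinct circRNAs in the tables, in 38 entries, and they held 477 of 252857 back-splice reads (reads that span the junction joining a downstream to an upstream position). Follicle RNA came from 3 goats of the Boer breed and 3 of the Macheng black breed, 1 library per animal. The animals of both breeds had normal estrous cycles and had all received 1000 IU of PMSG, a gonadotropin that drives follicle growth, and 500 IU of hCG, which triggers ovulation. No untreated goats are among the groups, the labels give no age, and the follicle was not divided into its cell types, so that fewer cells of a type and less RNA per cell cannot be told apart. Of 20 marker genes of granulosa, theca, oocyte and other cells, 18 were in the table of gene names, and none of these 18 was a usable host gene of a listed circRNA, so the labelled tissue could not be checked in these tables.

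SUMO is conjugated to lysines of target proteins by an E1, an E2 and E3 ligases, and SENP proteases remove it. Some SUMO forms are built into chains, and SENP6 is known for trimming such chains rather than for removing lone SUMO. CircRNAs arise when the splicing machinery joins the end of an exon to the start of the same or an upstream exon, and the closed product lacks the free ends at which exonucleases start. A gene can give several circRNAs that share a start or an end, here called isoforms.

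SENP6 was chosen on measured values, its number of listed circRNAs, so that number is a description. Only HMCN1 (25), ARHGAP10 (23), CEP112 (19) and MED17 (16) had more distinct circRNAs among usable host genes, and DOCK1, EML5 and MERTK followed SENP6 with 13 each. SENP6 had 8 distinct starts and 8 distinct ends for its 14 circRNAs, and each of the 14 shared its start or its end with another. ARHGAP10 had 9 starts and 15 ends for 23 circRNAs, and MED17 had 10 starts and 5 ends for 16.

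The 14 circRNAs lay on the plus strand of chromosome 9 between 2494750 and 2586754 (positions counted from 1; the genome build is not given in the sources used here), a stretch of 92005 bases. They are numbered here from 1 to 14 by start and then by end. They formed 2 groups with 14869 bases between them that no SENP6 circRNA entered. The upstream group, circRNAs 1 to 4, ran from 2494750 to 2530066. The downstream group, circRNAs 5 to 14, ran from 2544936 to 2586754. No circRNA of any other identifier overlapped the whole stretch on either strand.

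In the upstream group, circRNAs 1, 2 and 3 shared the start at 2494750 and ended at 2510775, 2514790 and 2530066. CircRNA 4 ran from 2510633 to 2530066, and so began in the stretch in which circRNA 1 ended. In the downstream group, circRNAs 5, 6 and 7 shared the start at 2544936 and ended at 2562846, 2570297 and 2571718. CircRNAs 8 and 9 shared the start at 2555114 and ended at 2570297 and 2571718. CircRNAs 10 and 11, from 2558025 and 2559793, also ended at 2570297, which was thus the most shared end with 4 circRNAs. CircRNAs 12 and 13 shared the start at 2570175 and ended at 2579687 and 2586754, and circRNA 14 ran from 2579257 to 2586754.

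**Figure D1:**
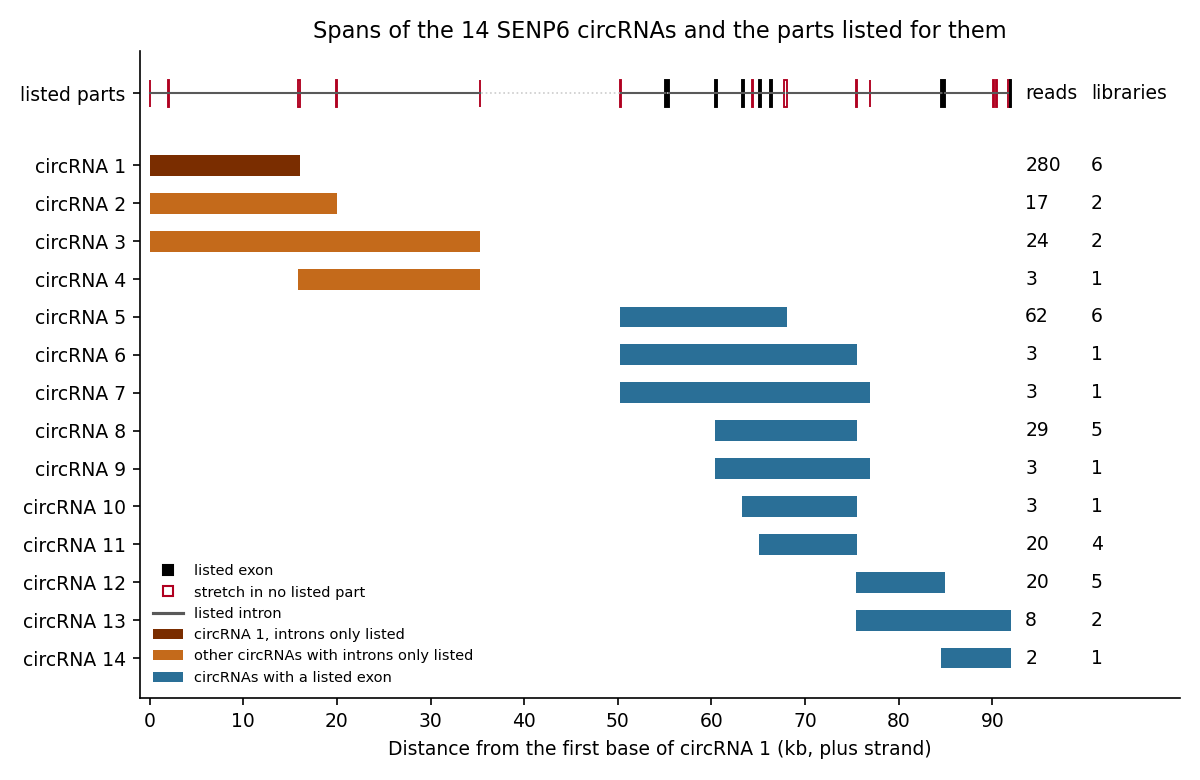
Spans of the 14 SENP6 circRNAs, drawn to scale as bars against the distance from the first base of circRNA 1 in kb; the top row shows the parts listed for them (introns as lines, 7 exons as filled boxes, 13 stretches in no listed part as open boxes, with outlines of fixed width), and the columns at the right give total back-splice reads and the number of libraries. The 4 upstream circRNAs have introns only among their listed parts, and the 10 downstream circRNAs have at least 1 listed exon.

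In 3 places the same stretch served as the first stretch of some circRNAs and the last of others. The stretch from 2570175 to 2570297, 123 bases long, closed 4 circRNAs and opened 2. That from 2510633 to 2510775, of 143 bases, closed 1 and opened 1, and so did the listed exon from 2579257 to 2579687, of 431 bases. The groups were formed by overlap of spans, so by definition no listed back-splice joined the upstream group to the downstream group.

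The deposited parts need care before a circRNA is called exonic or intronic. All 4 upstream circRNAs are listed with introns only and all 10 downstream circRNAs with 1 or more exons, yet all 14 began and ended outside their listed introns. CircRNA 1 has 2 listed introns, of 1904 and 13824 bases, and 3 stretches of 94, 61 and 143 bases before, between and after them that are in no listed part. The sequence between adjacent introns of a gene is by definition exon. The tables do not name these stretches, however, and do not show whether the listed introns are adjacent. Across the 14 circRNAs there were 17 distinct listed introns, 7 listed exons of 151 to 431 bases and 13 unlisted stretches of 34 to 343 bases. Of these 13 stretches, 11 were under 150 bases, and the other 2, from 2562504 to 2562846 and from 2586433 to 2586603, measured 343 and 171 bases. The stretch of 171 bases directly precedes the listed exon from 2586604 to 2586754, and so does not lie between 2 listed introns. Those from 2494750 to 2494843, from 2529996 to 2530066 and from 2544936 to 2545084 lie at the edge of a group. They too have a listed intron on 1 side only. In the 6 tables together, none of 40918 listed parts was shorter than 150 bases. Introns under that length may thus be unlisted too, and bases outside listed introns cannot all be read as exon. Over all usable host genes, 459 of 625 circRNAs listed with introns only (73.4%) had both ends outside their listed introns, like those of SENP6.

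The deposited spliced length follows the listed parts, introns included. In all 14 SENP6 circRNAs it equalled their sum, so that circRNA 1 has a deposited spliced length of 15728 bases, all of it intron. Outside its listed introns lie 298 of its 16026 bases. For circRNA 5 the same measure gave 1746 of 17911 bases, of which 1220 were in 5 listed exons. Over the 14 circRNAs, the span ranged from 7498 to 35317 bases with a median of 16592.5, and the bases outside listed introns from 298 to 1962 with a median of 1019.5. The circRNA with the fewest bases outside introns was thus circRNA 1, and the one with the most was circRNA 7.

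CircRNA 1 was the main SENP6 circRNA in every library. It had 93, 21 and 51 back-splice reads in Boer 1, 2 and 3 and 31, 41 and 43 in Macheng black 1, 2 and 3, together 280 reads or 58.7% of all SENP6 reads. Boer 1 had the most reads and Boer 2 the fewest, and the breeds overlapped. As a share of the SENP6 reads of a library, it ranged from 50% in Boer 2 (exact Clopper-Pearson 95% interval 34.2% to 65.8%) to 76.8% in Macheng black 3 (63.6% to 87.0%). These intervals treat reads as independent and cover counting error at most, not the spread between animals. Reads without molecular identifiers are not independent molecules, so the intervals may be too narrow.

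CircRNA 5, the second by reads and the other one listed in all 6 libraries, had 14, 8 and 9 reads in Boer and 10, 16 and 5 in Macheng black. Its 62 reads made up 13.0% of the total. CircRNA 1 exceeded it in each library, from 2.56 times in Macheng black 2 to 8.60 times in Macheng black 3. After scaling to CPM (reads scaled by the size of each library) over all listed back-splice reads, circRNA 1 averaged 1125 ± 360 CPM and circRNA 5 averaged 253 ± 59.2 CPM (SD, n = 6 libraries), and their ranges over libraries, 718 to 1636 and 190 to 350 CPM, did not overlap.

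The next circRNAs by reads were close together and uneven between animals. CircRNA 8 had 7, 0 and 10 reads in Boer and 8, 2 and 2 in Macheng black. CircRNA 11 had 8, 0 and 5 reads in Boer and 0, 4 and 3 in Macheng black. CircRNA 12 had 6, 6 and 3 reads in Boer and 2, 3 and 0 in Macheng black. A value of 0 means that the entry is not in that table, whose lowest back-splice count is 2 reads. Their means of 114 ± 95.6, 73.7 ± 58.4 and 81.6 ± 68.0 CPM (SD, n = 6 libraries) differed by less than their spread, and the range of circRNA 8, 0 to 234 CPM, overlapped that of circRNA 5.

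CircRNAs 2 and 3 were the uneven members of the upstream group. CircRNA 3, the longest, was listed in Boer 1 with 19 reads and in Macheng black 1 with 5. CircRNA 2 was listed in 2 Boer libraries, with 13 reads in Boer 1 and 4 in Boer 2. Together with circRNA 4, which had 3 reads in Macheng black 1, they raised the upstream group to 324 reads, 67.9% of the total, against 153 reads in the downstream group. CircRNA 13 had 4 reads in Boer 1 and 4 in Boer 3. CircRNAs 4, 6, 7, 9, 10 and 14 were each listed in 1 library with 2 or 3 reads.

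**Figure D2:**
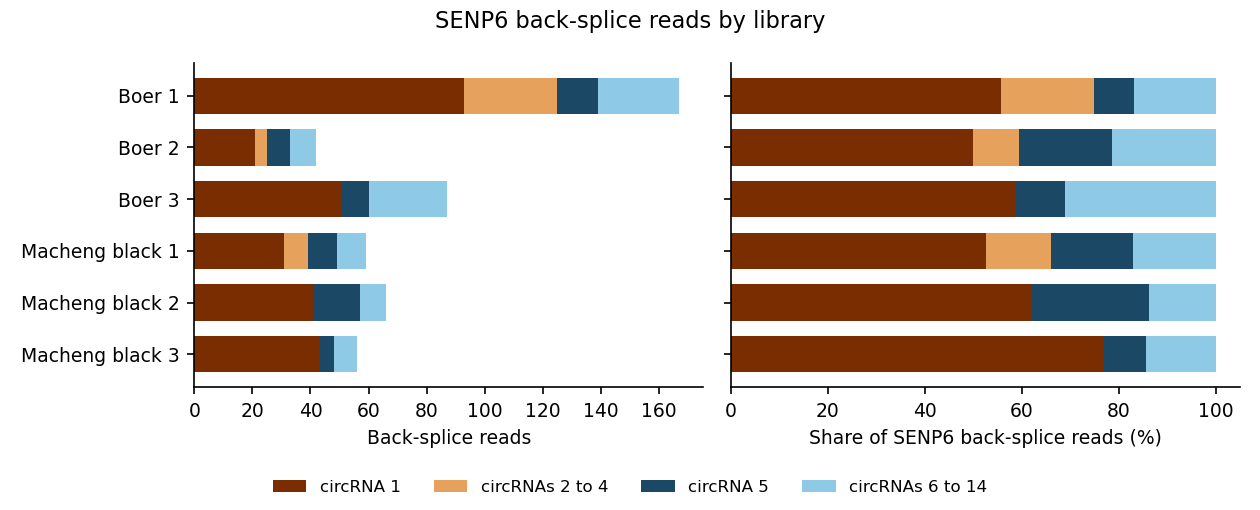
Back-splice reads of SENP6 circRNAs by library, as reads (left) and as a percentage of the SENP6 reads of the library (right), stacked for circRNA 1, circRNAs 2 to 4, circRNA 5 and circRNAs 6 to 14. CircRNA 1 makes up 50% to 76.8% of each bar, and circRNAs 2 to 4 appear in Boer 1, Boer 2 and Macheng black 1.

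The number of isoforms listed per library was 9, 5 and 8 in Boer and 6, 5 and 5 in Macheng black. It was largest in Boer 1, which also had the most listed back-splice reads of all libraries (74796, against 23480 to 49141 in the other 5), and the part of depth in this order was not tested. SENP6 took between 0.134% (Macheng black 2) and 0.239% (Macheng black 3) of the listed back-splice reads of a library. Of the 14 circRNAs, 6 were listed in both breeds, 6 only in Boer libraries and 2 only in Macheng black libraries. The 6 Boer-only circRNAs (2, 7, 9, 10, 13 and 14) held 36 reads together and the 2 Macheng black-only circRNAs (4 and 6) held 6 reads. Boer 1 also listed the most circRNAs of the whole series, 7005, against 3347 (Macheng black 3) to 5415 (Macheng black 2) elsewhere. The same split by breed was not made for all listed circRNAs. Whether 6 against 2 is particular to SENP6 was therefore not tested.

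The comparison of the breeds asked whether SENP6 circRNAs differ between Boer and Macheng black follicles. Summed over the 14 circRNAs, SENP6 had 167, 42 and 87 back-splice reads in Boer and 59, 66 and 56 in Macheng black. Scaled to the reads of usable host genes, the 3 Boer libraries stood at 13656, 9618 and 11820 CPM, and the 3 Macheng black libraries at 9729, 8253 and 12730 CPM. Boer 2 lay below 2 of the 3 Macheng black libraries and Macheng black 3 above 2 of the 3 Boer libraries. The Boer mean was 11698 ± 2022 CPM and the Macheng black mean 10237 ± 2281 CPM (SD, n = 3 per breed), and the libraries of the breeds overlapped. The log2 fold change, Boer over Macheng black, was 0.21 ± 0.34 (SE) with an adjusted p of 0.967 in edgeR's quasi-likelihood test. In this fit 5 of 433 host genes passed at an adjusted p under 0.05, a background of 1.15%, 6.93% had an unadjusted p under 0.05, and 10.2% had breeds that did not overlap.

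Of the 14 circRNAs, 5 (circRNAs 1, 5, 8, 11 and 12) had at least 2 reads in at least 3 libraries and entered the test of single circRNAs. They held 411 of the 477 reads, and the other 9 were too rarely listed to be tested. None of the 5 passed the edgeR test, where 0.35% of all 3712 tested circRNAs did. None of the 5 had an unadjusted p under 0.05 either (5.23% of all tested did), and none passed with DESeq2.

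For circRNA 1, the Boer mean was 1117 ± 366 CPM and the Macheng black mean 1133 ± 437 CPM (SD, n = 3 per breed). Its log2 fold change was 0.010 ± 0.40 (SE; adjusted p = 0.9998 in edgeR), and the sign of this value, which is close to 0, depends on the scaling. For circRNA 5, these means were 234 ± 34.9 and 273 ± 79.9 CPM, with a log2 fold change of -0.26 ± 0.57 (SE). CircRNA 8 averaged 114 ± 117 and 114 ± 95.7 CPM, and circRNA 11 averaged 80.2 ± 69.6 and 67.2 ± 59.7 CPM. CircRNA 12, which opens with the stretch that closes circRNAs 6, 8, 10 and 11, was the one tested circRNA whose breeds did not overlap. The Boer libraries had 92.8, 205 and 70.2 CPM of it, and the Macheng black libraries had 55.8, 65.6 and 0 CPM. That is 1 of 5 SENP6 circRNAs without overlap, beside 11.7% of all circRNAs tested. The log2 fold change of circRNA 12, 1.41 ± 1.41 (SE), did not pass (adjusted p = 0.9998 in edgeR). It rests on 0 to 6 reads per library.

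**Figure D3:**
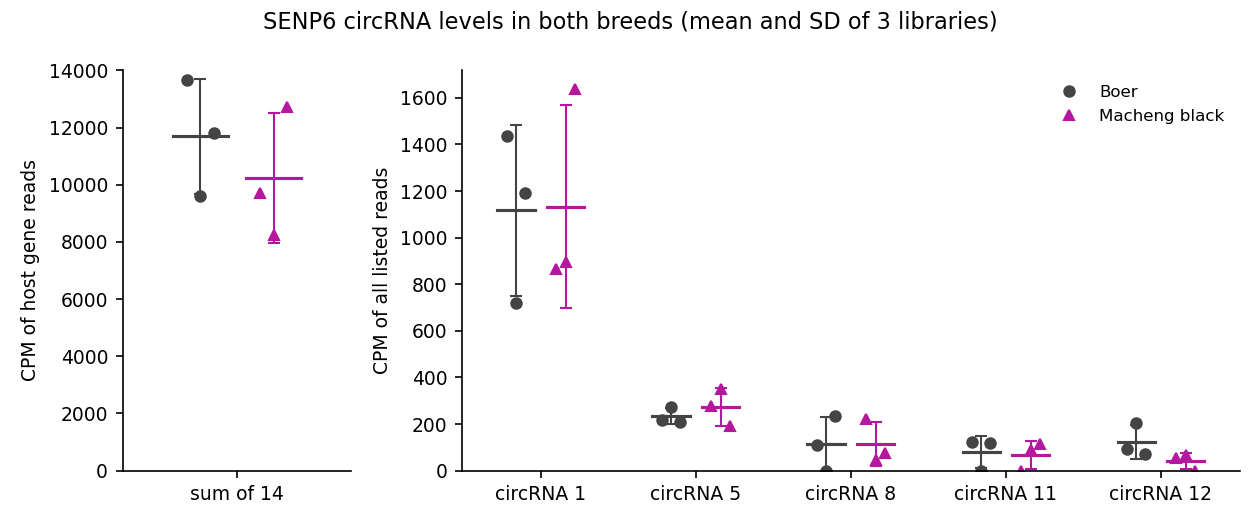
Levels of SENP6 circRNAs in 3 Boer (circles) and 3 Macheng black (triangles) libraries as CPM on linear axes that start at 0, for the sum of 14 circRNAs scaled to reads of usable host genes (left) and the 5 tested circRNAs scaled to all listed reads (right); horizontal lines are means and bars the SD, stopped at 0. The breeds overlap in the sum and in circRNAs 1, 5, 8 and 11, and do not overlap in circRNA 12.

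The make-up of the SENP6 reads was also compared. CircRNA 1 made up 54.8% ± 4.38 of SENP6 reads in the Boer libraries and 63.8% ± 12.2 in the Macheng black ones (SD, n = 3 per breed). This difference had p = 0.3 in a two-sided exact permutation test, whose smallest p with 3 animals per breed is 0.1. When the share was taken of circRNAs 1 and 5 alone, the Boer mean was the higher one, by 2.40 percentage points. The share of the upstream group, which is also the share of circRNAs listed with introns only, was 74.9%, 59.5% and 58.6% in Boer and 66.1%, 62.1% and 76.8% in Macheng black. The breed means of 64.3% ± 9.12 and 68.3% ± 7.58 (SD, n = 3 per breed) differed by less than the SD of either breed (p = 0.5, two-sided exact permutation test). The use of the 5 tested circRNAs within SENP6 was compared with edgeR's diffSpliceDGE, in which SENP6 ranked 121st of 121 host genes (adjusted p = 0.999 from Simes' method in edgeR). In that test 0% of host genes passed, and 3 had an unadjusted p under 0.05.

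The tables give a second count for each circRNA, called non-junction reads. This count varied less between libraries than the back-splice count over the series as a whole: summed over all entries, it ranged from 2218231 to 3307051, and the back-splice count from 23480 to 74796, neither scaled for depth. CircRNA 1 had 762, 919 and 846 non-junction reads in Boer and 892, 702 and 1165 in Macheng black, so its highest library had 1.66 times its lowest, against 4.43 times for its back-splice reads. CircRNA 5 had 2647 to 3161 non-junction reads over the 6 libraries, 1.19 times from lowest to highest, against 3.20 times for its back-splice reads. In the 7 SENP6 circRNAs other than circRNA 13 that were listed in 2 or more libraries, the back-splice reads had the larger ratio of highest to lowest library. Their back-splice counts are far smaller than their non-junction counts, so counting error alone widens that ratio. These ratios are of raw counts, so differences in depth between libraries enter them too. After scaling to CPM, back-splice reads ran from 718 to 1636 CPM for circRNA 1 and from 190 to 350 CPM for circRNA 5. Variation beyond counting error and depth was not tested. CircRNA 13 had 4 back-splice reads in both its libraries, and its non-junction reads differed 1.31 times. Boer 1, highest in unscaled back-splice reads of circRNA 1, was next to lowest in its non-junction reads. In CPM, Macheng black 3 was highest in back-splice reads of circRNA 1 (1636 CPM), and it was also highest in its non-junction reads.

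The non-junction count added up over the listed parts. In Macheng black 1, the 4 listed introns of circRNA 3 are those of circRNA 1 and circRNA 4 together, and its 5137 non-junction reads equalled their 892 plus 4245. Over all usable host genes, 52 of 64 such splits within a library gave exactly equal sums (81.2%). In 1623 of 1627 pairs in which 1 circRNA held all listed parts of another and more, it had at least as many non-junction reads. This count is therefore not a count of linear splicing at the 2 ends of a circRNA, and it grew with the parts listed for it.

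Differences between nested isoforms placed these reads along the gene. In Boer 3, circRNAs 12 and 14 share the listed exon from 2579257 to 2579687 and together hold all parts of circRNA 13. Their 967 and 1273 non-junction reads exceeded its 1776 by 464, which, where the counts add up, are the reads on that exon of 431 bases, 1077 per kb. The 2 listed introns just upstream, of 8866 bases, held 503 reads, 56.7 per kb. No other exon could be separated in this way. In Macheng black 3, circRNA 5 shares 4 listed parts with circRNA 11 and 9 with circRNA 8, exons and introns mixed. These shared parts held 164 and 153 reads per kb, less than the 184 and 202 per kb in the parts of circRNA 6 outside circRNAs 11 and 8. In Boer 1, the difference between circRNAs 2 and 1 left 111 reads for the intron from 2510776 to 2514694, 28.3 per kb, and that between circRNAs 3 and 2 left 3595 reads for the next intron, from 2514791 to 2529995, 236 per kb. In Boer 2, the first of these introns had 280 reads, 71.4 per kb. The intron from 2514791 to 2529995 was thus the more densely covered of the pair in Boer 1, the one library in which both could be separated.

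CircRNA 1 had the highest share of back-splice reads among both counts in every library. Its share of back-splice reads in the sum of back-splice and non-junction reads was 10.9%, 2.23% and 5.69% in Boer and 3.36%, 5.52% and 3.56% in Macheng black. The highest share of any other SENP6 circRNA was 1.47%, for circRNA 2 in Boer 1, and circRNA 5 ranged from 0.158% to 0.559%. CircRNA 1 is also one of the isoforms whose listed parts are introns alone, so that its non-junction reads are those counted over its introns.

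**Figure D4:**
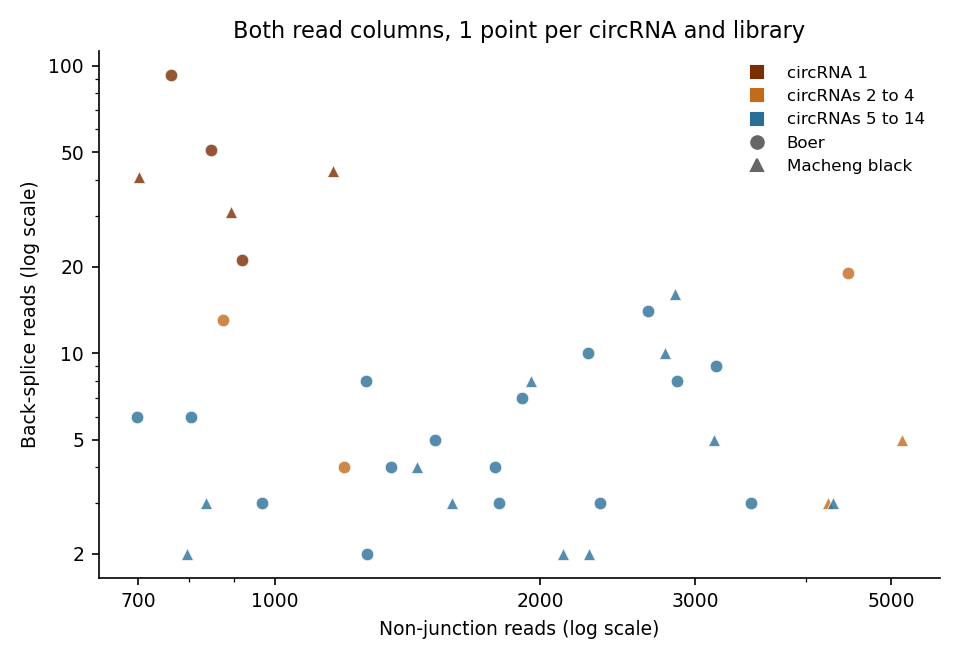
Back-splice reads against non-junction reads on log axes, with 1 point per SENP6 circRNA and library, circles for Boer and triangles for Macheng black. The 6 points of circRNA 1 lie at 702 to 1165 non-junction reads and 21 to 93 back-splice reads, above every point of the other circRNAs.

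Summed over its listed circRNAs, SENP6 had a back-splice share of 0.948%, 0.551% and 0.611% in Boer and 0.372%, 0.823% and 0.447% in Macheng black. The breed means were 0.704% ± 0.214 and 0.547% ± 0.241 (SD, n = 3 per breed), and the libraries of the breeds overlapped (p = 0.5, two-sided exact permutation test). For circRNA 1 alone, a comparison added after the data were seen, the Boer mean was 2.12 percentage points higher (p = 0.6, two-sided exact permutation test). Overlapping isoforms count the same non-junction reads more than once, so the summed share counts some of them several times.

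Beside the other usable host genes of the same library, SENP6 lay low in this summed share. It averaged 0.625% ± 0.221 for SENP6, against 2.14% ± 0.643 for all other usable host genes summed (SD, n = 6 libraries), and was lower in 6 of 6 libraries. Between 4.48% (Macheng black 1) and 14.4% (Macheng black 2) of host genes had a lower share than SENP6, so it was low but not at the bottom. SENP6 was chosen for its many circRNAs, whose overlap enters the summed share, so this is a description and no p is given. The size of the difference depended on how the share was formed. It was -1.51 percentage points as above, -2.94 points with back-splice reads weighted 2 times and -7.63 points for unweighted means over circRNAs. SENP6 circRNAs were long, with medians per library of 15184 to 16969 bases, against 6125 to 7300 bases for the others. Another 3 ways were added after the data were seen. The difference was -0.958 points when the others were limited to circRNAs of 7498 to 35317 bases, the range of SENP6, -0.889 points against host genes with 5 or more circRNAs, and -2.53 points against the median host gene. CircRNA 1 alone went the other way and lay above the other host genes summed in every library. In Boer its share was 10.9%, 2.23% and 5.69%, against 3.22%, 1.54% and 2.15% for the others. In Macheng black it was 3.36%, 5.52% and 3.56%, against 2.13%, 2.35% and 1.44%. A single circRNA, picked as the main one, is set here against sums over many, so the measures are unlike.

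Other genes of the SUMO pathway were looked up among the host genes from a list of 34, of which 32 were in the table of goat gene names. Of these, 4 were usable hosts of a listed circRNA, namely ZNF451, RNF4, USPL1 and MUL1, and 2 could be tested. ZNF451, a SUMO ligase that builds chains, had 6 circRNAs and 141, 35 and 66 reads in Boer and 53, 53 and 30 in Macheng black. Boer 1 was highest, and the breeds overlapped. On the scale of host gene reads, its Boer mean was 9504 ± 1818 CPM and its Macheng black mean 7396 ± 1168 CPM (SD, n = 3 per breed). Its log2 fold change was 0.37 ± 0.34 (SE; adjusted p = 0.967 in edgeR). Its main circRNA, on the minus strand of chromosome 23 from 2811288 to 2821340, held 73.5% of its reads and, like circRNA 1 of SENP6, is listed with introns only, with 510 of 10053 bases outside them.

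RNF4, a ubiquitin ligase that recognises SUMO chains, had a single circRNA, on chromosome 6 from 113170283 to 113179799, with 14, 5 and 12 reads in Boer and 5, 21 and 5 in Macheng black. Its breed means on that scale, 1307 ± 280 CPM for Boer and 1529 ± 963 CPM for Macheng black (SD, n = 3 per breed), were closer than the libraries within Macheng black (log2 fold change -0.27 ± 0.61, SE), and Macheng black 2 alone set the higher mean of its breed. USPL1, a SUMO protease of another family, had 4 reads in 2 libraries, and MUL1, a ligase of the mitochondrial outer membrane, had 2 reads in 1 library. Thus 0 of 2 tested members passed, where 1.15% of host genes did; none had an unadjusted p under 0.05, and none passed with DESeq2. The median log2 fold change of the 2 was 0.051, and that of all 433 tested host genes 0.089. SENP1, SENP2, SENP3, SENP5, SENP7 and SENP8 were not found by symbol among the usable host genes, of which 753 of 782 had a symbol.

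The tested host genes whose levels ran most like those of SENP6 over the 6 libraries were PLA2G4A, which encodes a phospholipase that releases arachidonic acid, KCNC2, which encodes a potassium channel, and ARFIP1 (Pearson r of log2 CPM of 0.95, 0.94 and 0.92, out of 432 genes compared, as a description). PLA2G4A had 12, 0 and 2 reads in Boer and 0, 0 and 3 in Macheng black, and KCNC2 had 5, 0 and 2 and 0, 0 and 2. ARFIP1 had 14, 0 and 3 reads in Boer and 0, 0 and 8 in Macheng black. All 3 had reads only in Boer 1, Boer 3 and Macheng black 3, the 3 libraries with the highest SENP6 CPM, and no read in the other 3, so this likeness rests on which libraries listed them at all.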

How the data were processed

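Back-splice (junction) and non-junction reads are raw counts as deposited by the authors, 1 table per library, per the file headers; the other deposited values, full and spliced length, are in bases. Per the submitters' processing notes, Bowtie2 2.0.6 and TopHat2 were used. As for circRNA caller, build and filters, each is not given in the sources used here. Breeds and animal numbers come from the titles; the label code and the file code of Boer 2 differ by a digit. Starts count from 0 in the tables, and 1 was added. A host gene identifier was usable if it lay on 1 chromosome with no listed part over 1 Mb; 800 of 829 were, and 2043 circRNAs had exactly 1. Symbols were matched by identifier to RefSeq's table of assembly ARS1.2 (753 of 782 host genes). CircRNAs and host genes listed with 2 or more reads in 3 or more libraries entered edgeR 4.0.16 (R 4.3.3; TMM, quasi-likelihood, Benjamini-Hochberg at 0.05, diffSpliceDGE for use within genes; DESeq2 1.42.0 as an alternative), after tests on simulated counts. Library size was all listed reads for circRNAs (23480 to 74796; 1 read was worth 15.5 to 38.1 CPM) and reads of usable hosts for host genes. SE were derived from fold change and F. Shares were compared by exact permutation in scipy 1.17.1. Named items were all SENP6 circRNAs, SUMO list members that host circRNAs, the 4 hosts with more circRNAs, and the 3 most like hosts. Members and lists were chosen with earlier results of these data known. The libraries are separate animals, so p-values cover the spread between 3 animals per breed.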

Additional observations from a re-analysis of the deposited data

How the results depend on the processing

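Over 172 recomputed values of 15 results, 146 kept their direction and their side of the threshold. Counts of circRNAs or genes passing and the usage p have no direction, and for these only the count or the side was compared. For the shares compared between breeds, the side was fixed in advance and only the direction could change. Their smallest p in the exact permutation test is 0.1, or 0.2 with 1 library left out. Such values are among the 146, which is thus no measure of how firm these results are. Direction changed in 20 values, and 6 crossed the threshold. Those 6 are the runs without 1 library of the back-splice share against other host genes. With 5 pairs the smallest p of the exact paired permutation test is 0.0625, so this crossing was fixed in advance. That share is given as a description only, and neither side of the threshold is read as a result. The number of SENP6 circRNAs passing the test stayed at 0 in 13 alternatives, and the summed log2 fold change of SENP6 stayed above 0, from 0.072 to 0.39, in 13 alternatives, without passing in any. The log2 fold change of circRNA 1 (0.010) turned to -0.12 with DESeq2, -0.12 with DESeq2 size factors in edgeR, -0.017 with library totals, -0.058 with at least 5 reads in 3 libraries and -0.0088 with the replicate block, and ran from -0.21 to 0.40 with 1 library left out (tested set held fixed). That of circRNA 8 (0.047) turned to -0.082, -0.059 and -0.39 with DESeq2, its size factors and the replicate block, and ran from -0.88 to 0.98 with 1 library left out; that of circRNA 11 (0.33) ran from -0.23 to 0.86 and that of RNF4 from -0.57 to 0.43, turning without Macheng black 2. The cause was not tested. The share of circRNA 1 (-9.05 points, Boer minus Macheng black) became 2.40 points among circRNAs 1 and 5 alone and ran from -14.7 to -2.56 with 1 library left out; the upstream share (-4.00 points) ran from -9.26 to 0.22, turning without Macheng black 3. The summed back-splice share against other host genes, given as a description, ran from -1.62 to -1.36 points with 1 library left out. With the replicate block, the summed log2 fold change was 0.20 and the usage p was 0.935 (Simes' method in edgeR), and 11 in place of 13 circRNAs and 0 in place of 5 host genes passed. No pairing of the libraries by number was seen (correlations of same-numbered deviations of -0.02, -0.034 and 0.016). Tested circRNAs with as few as 2 reads in a library enter these correlations, so they cannot exclude a pairing. DESeq2 called 8 circRNAs and 1 host gene. No isoform but circRNA 1 had over 19 reads in a library, which limits the precision of their values.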
